A study of Mus musculus with 6 samples.

Results

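Hox genes encode homeodomain transcription factors that give cells along the head-to-tail axis their regional identity. In the mouse they lie in 4 clusters, HoxA on chromosome 6, HoxB on chromosome 11, HoxC on chromosome 15 and HoxD on chromosome 2, and members with the same paralog number descend from a common ancestral gene. Within a cluster the order of the genes follows the order of their expression domains, from anterior genes with low numbers to posterior genes with high numbers, and the gut keeps such a regional code in its adult epithelium and mesenchyme. The members were taken by name, as every gene whose symbol is Hoxa, Hoxb, Hoxc or Hoxd followed by a number. The deposited table held 39 of them among 21966 genes: 11 in HoxA, 10 in HoxB, 9 in HoxC and 9 in HoxD.

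The study compared primary colonic cell lines grown from adenomas of mice that do or do not express PID, a peptide inhibitor of the group I p21-activated kinases. PID+ cells were CDX2P-NLS-Cre;APC^Δ/+;ROSA26-PID, while PID- cells were CDX2P-NLS-Cre;APC^Δ/+, so both carried a deleted Apc allele and a Cre recombinase under a CDX2 promoter, which the authors use to target the gut epithelium, chiefly of the colon. In PID+ cells that Cre removes a stop cassette from the Rosa26 locus and releases a GST-PID fusion with an eGFP reporter. The labels give 3 PID+ samples (mice 4, 7 and 26) and 3 PID- samples (mice 1, 2 and 3), whereas the methods speak of replicated sequencing runs and the paper numbers the PID- lines differently.

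PID- samples carry the words normal and untreated in their labels, although both genotypes carry the Apc deletion and the paper describes both as tumour lines. The PID transgene is not among the genes of the table, and the labels of the conditions could not be checked against it. The authors merged the reads of a condition before quantification, and the table therefore gives 1 pooled FPKM (fragments scaled to transcript length and library size) per gene and condition with CuffDiff's interval. No spread between mice can be calculated from it, and no difference between the conditions was tested. The paper calls the lines colonic but gives no gut segment for the tumour behind each line. In pooled values, the site of the tumours or a single line cannot be told apart from the genotype. A change is given as log2 of (FPKM + 1) in PID+ over (FPKM + 1) in PID- cells, and a gene is called higher or lower when that ratio reaches 3-fold. With this pseudocount of 1, weakly expressed genes appear to change less than they did.

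In these cells most genes of HoxA and HoxB were expressed in both conditions, HoxC was almost silent, and HoxD differed most. In pooled cultures, fewer cells of a type and less RNA per cell cannot be told apart. With an FPKM of at least 1 taken as expressed, 21 Hox genes were expressed in PID+ cells against 19 in PID- cells. Of the 39 genes, 3 were called higher in PID+ cells, Hoxd8, Hoxd9 and Hoxd4, against 1.04% of all genes. Hoxa13 was the 1 gene called lower, against 1.72% of all genes. The called genes made up 7.69% and 2.56% of the Hox genes, and either call was made for 2.76% of all genes. With a 2-fold rule, 5 Hox genes were higher and 3 lower, against 3.31% and 3.77% of all genes. CuffDiff's intervals overlapped between the conditions for each of the 39 genes, of which 8 were listed at 0 in both. They were apart for 0.729% of the 21959 genes with a successful estimate in both conditions. None among 39 genes is near that share. The median log2 change was 0.07 over all Hox genes and 0.43 over the 22 expressed in at least 1 condition, beside 0 over all genes and -0.01 over all expressed genes. Hoxd4, Hoxd8 and Hoxd9 counted as expressed through PID+ cells alone and Hoxa13 through PID- cells alone, so the median over expressed genes depends in part on the change itself.

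**Figure D1:**
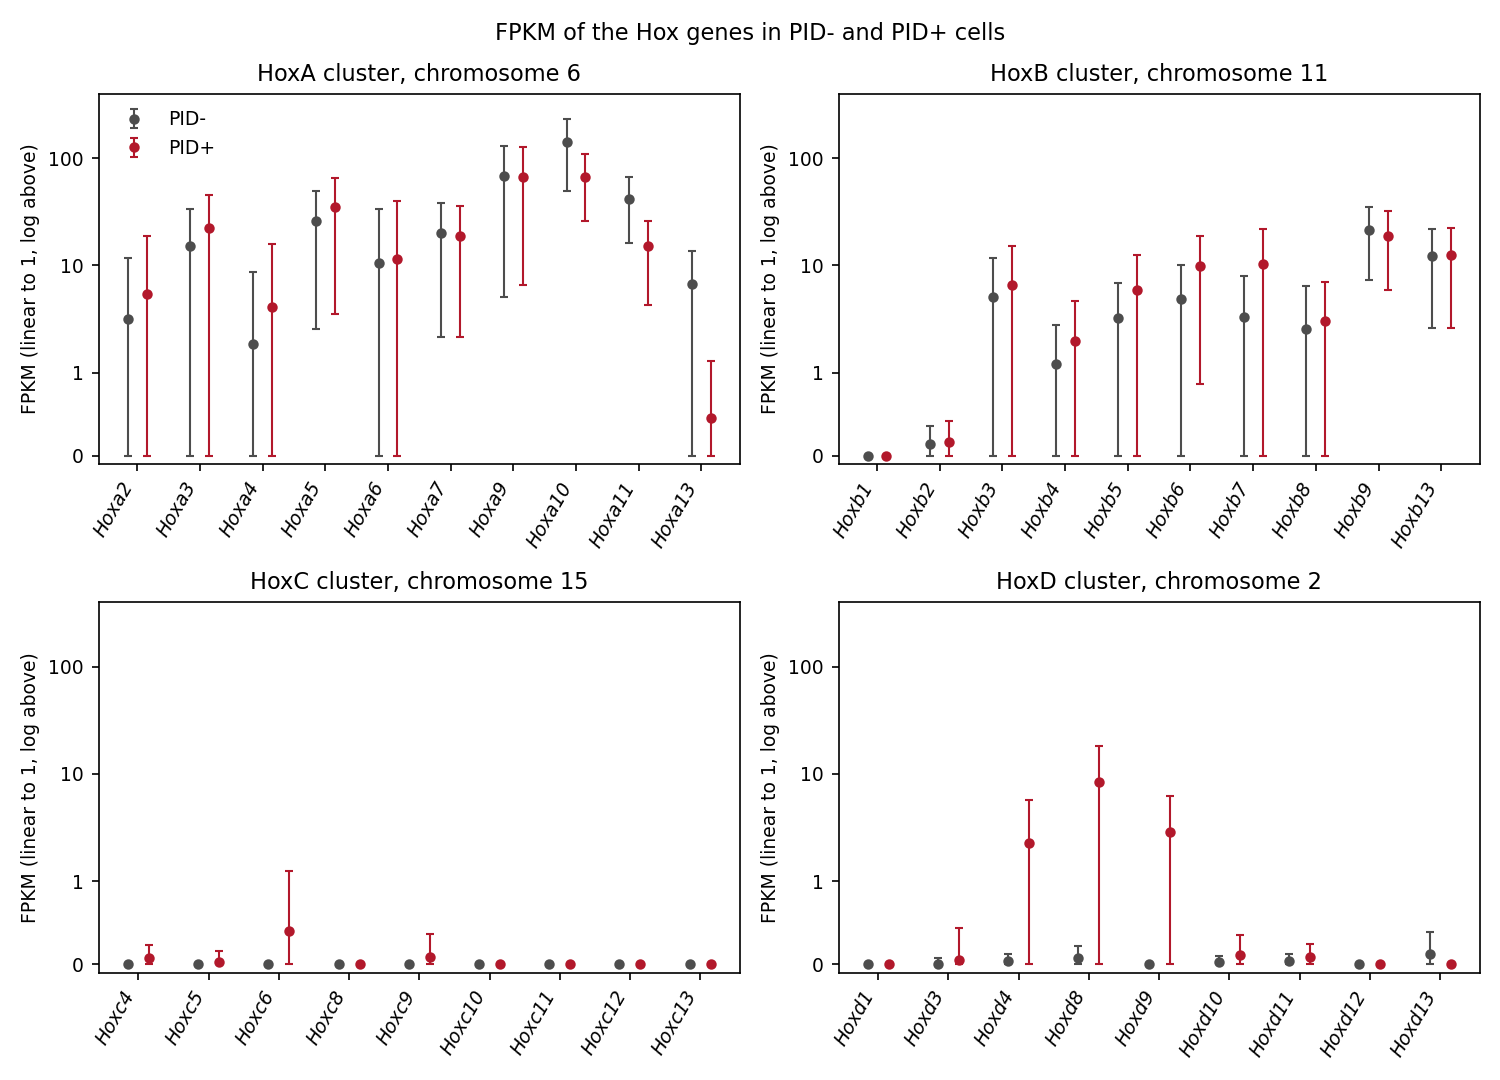
FPKM (vertical axis, linear up to 1 and logarithmic above) of the Hox genes reported in PID- (grey) and PID+ (red) cells, 1 panel per cluster with genes in the order of their paralog numbers. Points are the authors' pooled values and bars their CuffDiff intervals. Most HoxA and HoxB genes lay above 1 in both conditions, Hoxa10 reached 141 in PID- cells, and Hoxd4, Hoxd8 and Hoxd9 stood above 2 in PID+ cells only.

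HoxA carried most of the Hox expression. Its 11 genes summed to an FPKM of 253 in PID+ cells against 335 in PID- cells, which was 75.2% and 86.1% of the Hox total of the condition. Among its anterior genes Hoxa2, which patterns the second pharyngeal arch, had an FPKM of 5.45 in PID+ cells against 3.14 in PID- cells (0.64 on the log2 scale). The next genes of the cluster kept the same order of the conditions. Hoxa3, needed for thymus and parathyroid development, had 22.0 and 15.02 (0.52), and Hoxa4 had 4.11 and 1.84 (0.85).

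The middle of HoxA differed little between the conditions. Hoxa5, which acts in the mesenchyme of the lung and the gut, had an FPKM of 34.6 in PID+ cells against 25.7 in PID- cells, with a log2 change of 0.41. Values of 11.6 and 10.4 were found for Hoxa6 (0.13), and 18.8 and 20.2 for Hoxa7 (-0.10). Hoxa9, a driver of leukaemia when overexpressed, was the most abundant Hox gene of PID+ cells. Its FPKM (ENSMUSG00000038227.12, chromosome 6 from 52223100 to 52231089, minus strand) was 67.1 in PID+ cells, with an interval from 6.54 to 128, and 67.5 in PID- cells, with an interval from 5.09 to 130. The log2 change was -0.01 as deposited, -0.35 with the chromosome median subtracted and -0.62 with Gapdh set equal.

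Hoxa10, Hoxa11 and Hoxa13, the posterior genes past Hoxa9, were lower in PID+ cells with every scaling tried. Hoxa10, known for its part in the development of the uterus, was the most abundant Hox gene of PID- cells and ranked 535 among all genes there. Its FPKM (ENSMUSG00000000938.11, chromosome 6 from 52231197 to 52240854, minus strand) was 141 in PID- cells, with an interval from 48.9 to 233, and 66.9 in PID+ cells, with an interval from 25.9 to 108. The log2 change of -1.06 did not reach the call. Within PID- cells the FPKM of Hoxa9 was 0.478 times that of Hoxa10, whereas in PID+ cells the ratio was 1.003. Hoxa11, which acts with Hoxa10 in the limb, kidney and reproductive tract, had 15.1 in PID+ cells against 41.5 in PID- cells, a log2 change of -1.40. Fibroblast markers, of which 9 of 10 were below 0 on the log2 scale, moved the same way as these genes. They do not tell fibroblasts from tumour cells of fibroblast-like appearance, and their part in the result was not tested.

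Hoxa13, the terminal gene of the cluster, marks the hindgut and is required for its most distal part. It was the only Hox gene called lower in PID+ cells under the 3-fold rule. Its FPKM (ENSMUSG00000038203.15, chromosome 6 from 52257694 to 52260880, minus strand) was 0.459 in PID+ cells, with an interval from 0 to 1.27, and 6.62 in PID- cells, with an interval from 0 to 13.5. The log2 change was -2.39, and without the pseudocount the FPKM in PID- cells was 14.4 times that in PID+ cells. The order of the changes followed that of the genes with exceptions, as Hoxa4 lay above Hoxa2 and Hoxa3, and Hoxa9 above Hoxa7. Across the 11 HoxA genes, the rank correlation (Spearman's rho) between paralog number and log2 change was -0.96, a description of neighbouring genes in the same pooled libraries that was added after the values were seen.

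**Figure D2:**
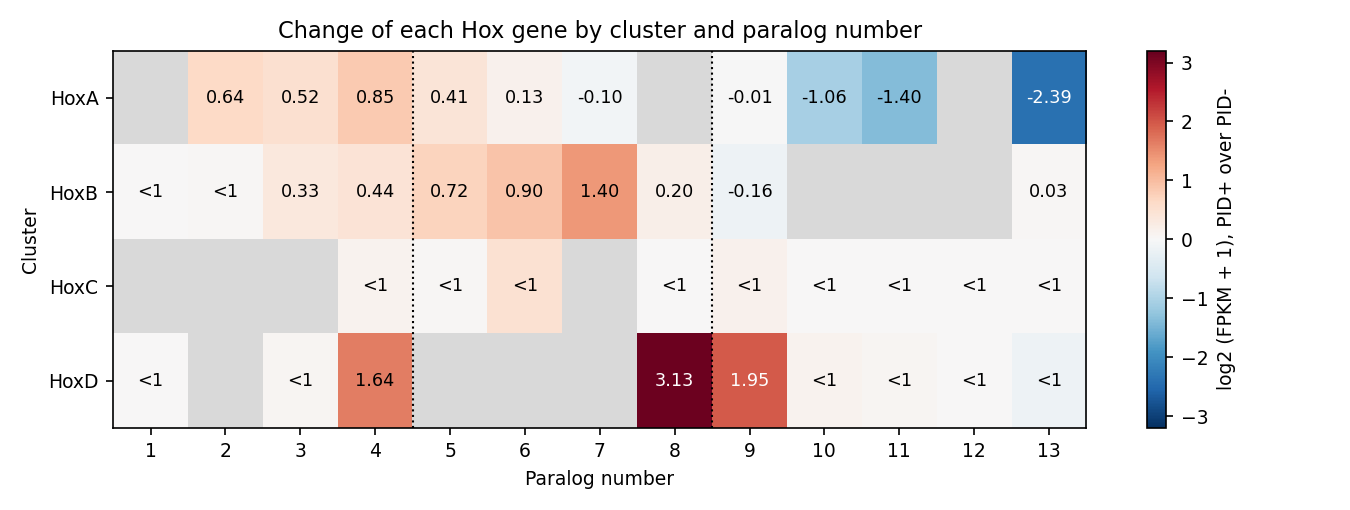
Grid of the log2 change in FPKM + 1 (colour, PID+ over PID-) with clusters in rows and paralog numbers in columns. Grey fields have no gene or none shown, "<1" marks genes with an FPKM under 1 in both conditions, and dotted lines separate anterior, central and posterior numbers. HoxA goes from 0.64 at Hoxa2 to -2.39 at Hoxa13, with values that cross 0 near Hoxa7; setting Gapdh equal also brings Hoxa3, Hoxa5 and Hoxa6 below 0.

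HoxB was expressed at lower levels, and none of its 10 genes was called, beside 2.76% of all genes. Its FPKM summed to 69.2 in PID+ cells against 53.7 in PID- cells. The log2 ratio of these sums was 0.36 as deposited and -0.25 with Gapdh set equal. The largest log2 change was that of Hoxb7, a central gene known from kidney duct and tumour studies, with an FPKM of 10.4 in PID+ cells against 3.31 in PID- cells (1.40). Its neighbour Hoxb6 had 9.84 and 4.80 (0.90). Hoxb5, which acts in the enteric nervous system, had 5.89 and 3.19 (0.72), and Hoxb8 had 3.04 and 2.52 (0.20). Among the anterior genes, 6.54 and 5.02 were measured for Hoxb3 (0.33) and 1.98 and 1.20 for Hoxb4 (0.44). With Gapdh set equal, the signs of Hoxb3 and Hoxb8 turned and those of Hoxb4, Hoxb5, Hoxb6 and Hoxb7 did not.

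The posterior HoxB genes had nearly the same FPKM in both conditions as deposited. Hoxb9 was the most abundant gene of the cluster in each. Its FPKM (ENSMUSG00000020875.9, chromosome 11 from 96271457 to 96276595, plus strand) was 18.9 in PID+ cells, with an interval from 5.94 to 31.8, and 21.2 in PID- cells, with an interval from 7.27 to 35.2, which gave a log2 change of -0.16, or -0.75 with Gapdh set equal. Hoxb13, a marker of prostate and distal colon, had 12.5 and 12.3, and its log2 change of 0.03 became -0.54 with Gapdh set equal. Hoxb13 thus stood beside Hoxa13, which has the same paralog number, with a different pattern. The FPKM of Hoxb13 was 27.3 times that of Hoxa13 in PID+ and 1.85 times in PID- cells. Across the 8 expressed HoxB genes the rank correlation of log2 change with paralog number was -0.50.

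HoxD transcripts were found mainly in PID+ cells. Its 9 genes summed to an FPKM of 13.8 in PID+ cells against 0.320 in PID- cells, a log2 ratio of 3.48. Hoxd8, a central gene, was the most abundant HoxD gene of PID+ cells and had the largest log2 change of the Hox genes, 3.13. Its FPKM (ENSMUSG00000027102.4, chromosome 2 from 74704615 to 74707933, plus strand) was 8.41 in PID+ cells, with an interval from 0 to 18.1, and 0.078 in PID- cells, with an interval from 0 to 0.217. Without the pseudocount the ratio was 108.

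Hoxd9, the next gene toward the posterior end, had an FPKM of 2.87 in PID+ cells, with an interval from 0 to 6.19, and was listed at 0 in PID- cells (ENSMUSG00000043342.9, chromosome 2 from 74697727 to 74700208, plus strand). Its log2 change with the pseudocount was 1.95. Over 4406 genes annotated with 1 transcript, small FPKM values lie on steps, and a step gives what 1 read is worth. Of the values up to 20 reads, 87.8% in PID+ cells and 88.9% in PID- cells came within 0.1 of whole reads, beside 20% for values without steps. The FPKM of 1 read in PID+ cells was 1.38 times that in PID- cells. This ratio mixes sequencing depth with scaling by the authors, and neither is known alone. By this measure Hoxd9 had 383 estimated reads in PID+ cells. Against a floor of 3 estimated reads in PID- cells (FPKM of 0.0163), it was at least 176-fold higher in PID+ cells as deposited, and at least 114-fold with Gapdh set equal. Such a floor covers counting error only.

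Hoxd4, an anterior gene that lies downstream of Hoxd8, had an FPKM of 2.25 in PID+ cells, with an interval from 0 to 5.64, and 0.0383 in PID- cells, with an interval from 0 to 0.122 (ENSMUSG00000101174.3, chromosome 2 from 74711929 to 74729160, plus strand). The log2 change was 1.64 and the ratio without the pseudocount 58.5. The PID- values correspond to about 18 reads for Hoxd8 and 8.58 for Hoxd4. Read numbers of genes with several transcripts use the longest and are approximate. The call of Hoxd4 was close to the threshold of 1.58 and was lost with Gapdh set equal (1.24), with totals set equal (1.57) and with the chromosome median subtracted (1.56). That of Hoxd9 was lost with Gapdh set equal (1.52).

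The outer HoxD genes were low in both conditions. The most abundant HoxD gene of PID- cells was Hoxd13, the terminal gene, which acts in digits and genitalia. Its FPKM (ENSMUSG00000001819.4, chromosome 2 from 74668310 to 74671599, plus strand) was 0.129 in PID- cells, with an interval from 0 to 0.384, and 0.00636 in PID+ cells, with an interval from 0 to 0.0217, or 28 reads and 1 read by estimate. Hoxd3, Hoxd10 and Hoxd11 had values of at most 0.117 in PID+ cells, and Hoxd1 and Hoxd12 were listed at 0. As listed, the 3 called genes had weakly expressed or undetected genes on both sides. Hoxd3 shares exons with Hoxd4, so its value depends on how reads were split between them.

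HoxC was near 0 throughout. In PID- cells its 9 genes were listed at 0, and in PID+ cells the sum was 0.594. Hoxc6 was the most abundant (ENSMUSG00000001661.5, chromosome 15 from 102998257 to 103011881, plus strand), with an FPKM of 0.398 and an interval from 0 to 1.24 in PID+ cells, or 38 estimated reads. Because every PID- value was 0, no most abundant gene can be named there. Over the 4 clusters, 17 genes had an FPKM below 1 in both conditions. Of these, 8 were listed at 0 in both: Hoxb1, Hoxc8, Hoxc10, Hoxc11, Hoxc12, Hoxc13, Hoxd1 and Hoxd12. The other 9 reached at most 0.398: Hoxb2, Hoxc4, Hoxc5, Hoxc6, Hoxc9, Hoxd3, Hoxd10, Hoxd11 and Hoxd13.

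Summed by paralog number, the Hox FPKM of PID+ cells lay further toward the anterior genes. The part of tumour site or of a single line in this difference was not tested. A share of the Hox total within a condition does not depend on the scaling between conditions. Numbers 1 to 4 held 14.7% of the Hox FPKM in PID+ cells against 7.39% in PID- cells. Numbers 5 to 8 held 30.6% and 18.0%, and numbers 9 to 13 held 54.7% and 74.6%. The mean paralog number weighted by FPKM, a measure added with the values known, was 7.65 in PID+ cells against 8.77 in PID- cells over all Hox genes. It was 7.59 and 8.81 within HoxA and 7.89 and 8.55 within HoxB. Leaving out HoxA changed the difference from -1.13 to -0.73, and leaving out Hoxa9 and Hoxa10 changed it to -1.31, both settings chosen after the values were seen.

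Single numbers made this clearer. Number 10, which rested on Hoxa10, held 36.2% of the Hox FPKM in PID- and 19.9% in PID+ cells, and number 11 held 10.7% and 4.51%. Number 9 was the largest in PID+ cells, with 26.4%, beside 22.8% in PID- cells. Number 5 held 12.0% and 7.43%, and number 3 held 8.504% and 5.14%, in PID+ and PID- cells. By counts, 10 of the 12 anterior genes were above 0 on the log2 scale and none was below, with Hoxb2, Hoxc4 and Hoxd3 among them at an FPKM under 1 in both conditions. Of the 11 central genes 9 were above and 1 below, and of the 16 posterior genes 5 were above and 6 below. Over all 21959 genes, 9001 were above 0. The median log2 changes were 0.38, 0.41 and 0, beside 0 over all genes. With Gapdh set equal they were 0.05, 0.02 and 0.

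**Figure D3:**
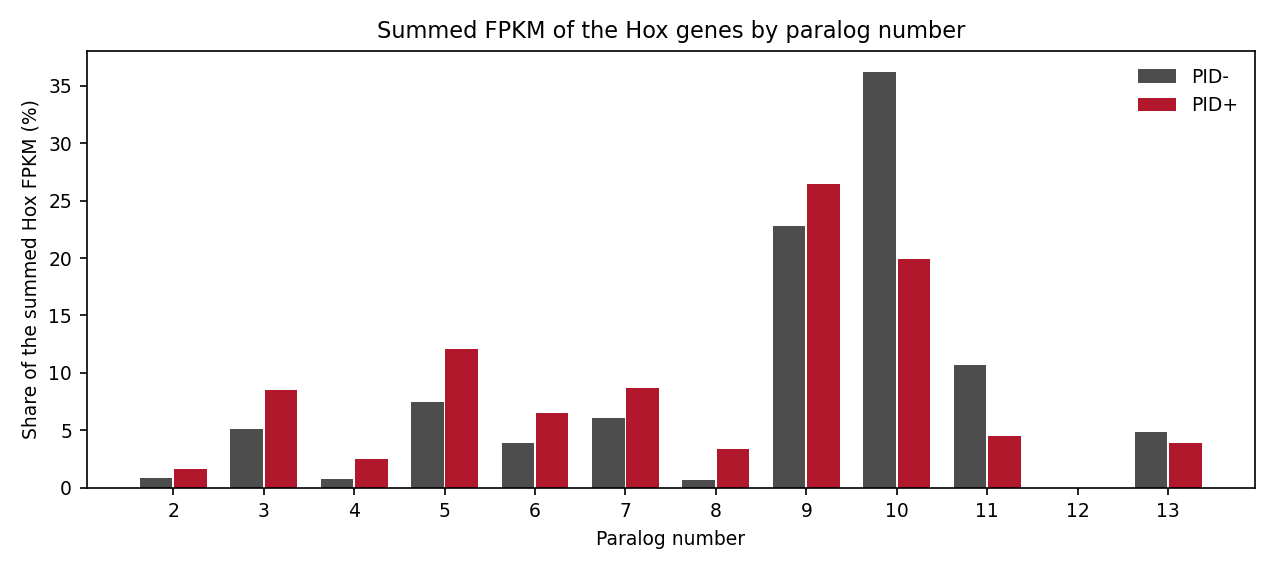
Share of the summed Hox FPKM of a condition (vertical axis, percent) by paralog number (horizontal axis, 2 to 13) in PID- (grey) and PID+ (red) cells. Number 10 held 36.2% in PID- and 19.9% in PID+ cells, and each number from 2 to 9 had a higher share in PID+ cells.

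These directions depend in part on the scaling between the conditions. Setting Gapdh equal multiplied all PID+ values by 0.648 and moved the median log2 change of all expressed genes to -0.57, and that of all genes to -0.08. Setting totals equal used a factor of 0.931 and moved the median of expressed genes to -0.10. As deposited, 16 of the 22 expressed Hox genes had a log2 change above 0 and 6 below, which became 10 and 12 with Gapdh equal. Hoxa3, Hoxa5, Hoxa6, Hoxb3, Hoxb8 and Hoxb13 changed sign. Hoxa2, Hoxa4, Hoxb4, Hoxb5, Hoxb6, Hoxb7 and the 3 called HoxD genes stayed above 0 in all 5 alternatives, and Hoxa7, Hoxa10, Hoxa11, Hoxa13 and Hoxb9 stayed below.

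Some Hox genes share exon sequence with other annotated genes, and the library kit does not mark the strand. Of 46 further genes annotated inside the clusters, 3 were in the table. Hoxa3 overlaps Gm28308, a transcript unit that runs through several HoxA genes, and 5730596B20Rik, and Hoxa2 overlaps Gm28308. Hoxd4 overlaps Hoxd3 and Gm28230. Their FPKM depend on how reads were split. The exons of Hoxa3, Hoxa4, Hoxa7, Hoxa11, Hoxb3, Hoxb5 and Hoxd4 overlap antisense transcripts, Hoxa11os and Hoxd3os1 among them. Reads of these genes cannot be told apart from those of the antisense transcripts. No exon overlap with another gene was found for Hoxa5, Hoxa6, Hoxa10, Hoxa13, Hoxb4, Hoxb6, Hoxb7, Hoxb8, Hoxb9, Hoxb13, Hoxd8 and Hoxd9.

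None of the 6 further genes in or around HoxA and the 4 in or around HoxD was called, beside 2.76% of all genes. For HoxA, 5 of these 6 genes were expressed, with log2 changes from 0.16 to 0.61. The median was 0.34 over 413 genes of chromosome 6 with a mean FPKM of at least 5. Gm28308 (0.50) and 5730596B20Rik (0.61) lie inside the cluster and share exons with Hox genes. Evx1, a homeobox gene that lies past Hoxa13, was listed at 0 in both conditions. Hibadh, an enzyme of valine breakdown on the same side, had an FPKM of 35.1 in PID+ cells against 31.3 in PID- cells (0.16). Skap2, an adaptor protein on the anterior side of the cluster, had 49.6 and 38.5 (0.36).

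Near HoxD, Lnpk, which shapes the endoplasmic reticulum, had an FPKM of 30.5 in PID+ cells against 19.2 in PID- cells (0.64). Mtx2, a mitochondrial import protein on the Hoxd1 side, had 39.1 and 36.6 (0.09). Evx2, next to Hoxd13, was listed at 0 in PID+ cells and at 0.00265 in PID- cells. Gm28230, inside the cluster, had 0.529 and 0.00712. That gene shares exons with Hoxd4, and like Hoxd4 it had its reads mainly in PID+ cells.

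HoxB and HoxC lie among more genes. Of 18 neighbours of HoxB, 9 were expressed, with a median log2 change of 0.14, and 1 was called, beside 2.76% of all genes. That gene, Copz2, which encodes a coat protein subunit and hosts a microRNA, had an FPKM of 1.49 in PID+ cells against 11.5 in PID- cells (-2.33). Igf2bp1, an RNA-binding protein on the Hoxb13 side, had 5.38 and 1.495 (1.35). Of 25 neighbours of HoxC, 16 were expressed, with a median of -0.04 and values from -1.09 for the integrin gene Itga5 to 0.92 for Zfp385a. The silence of HoxC was thus found among expressed neighbours.

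**Figure D4:**
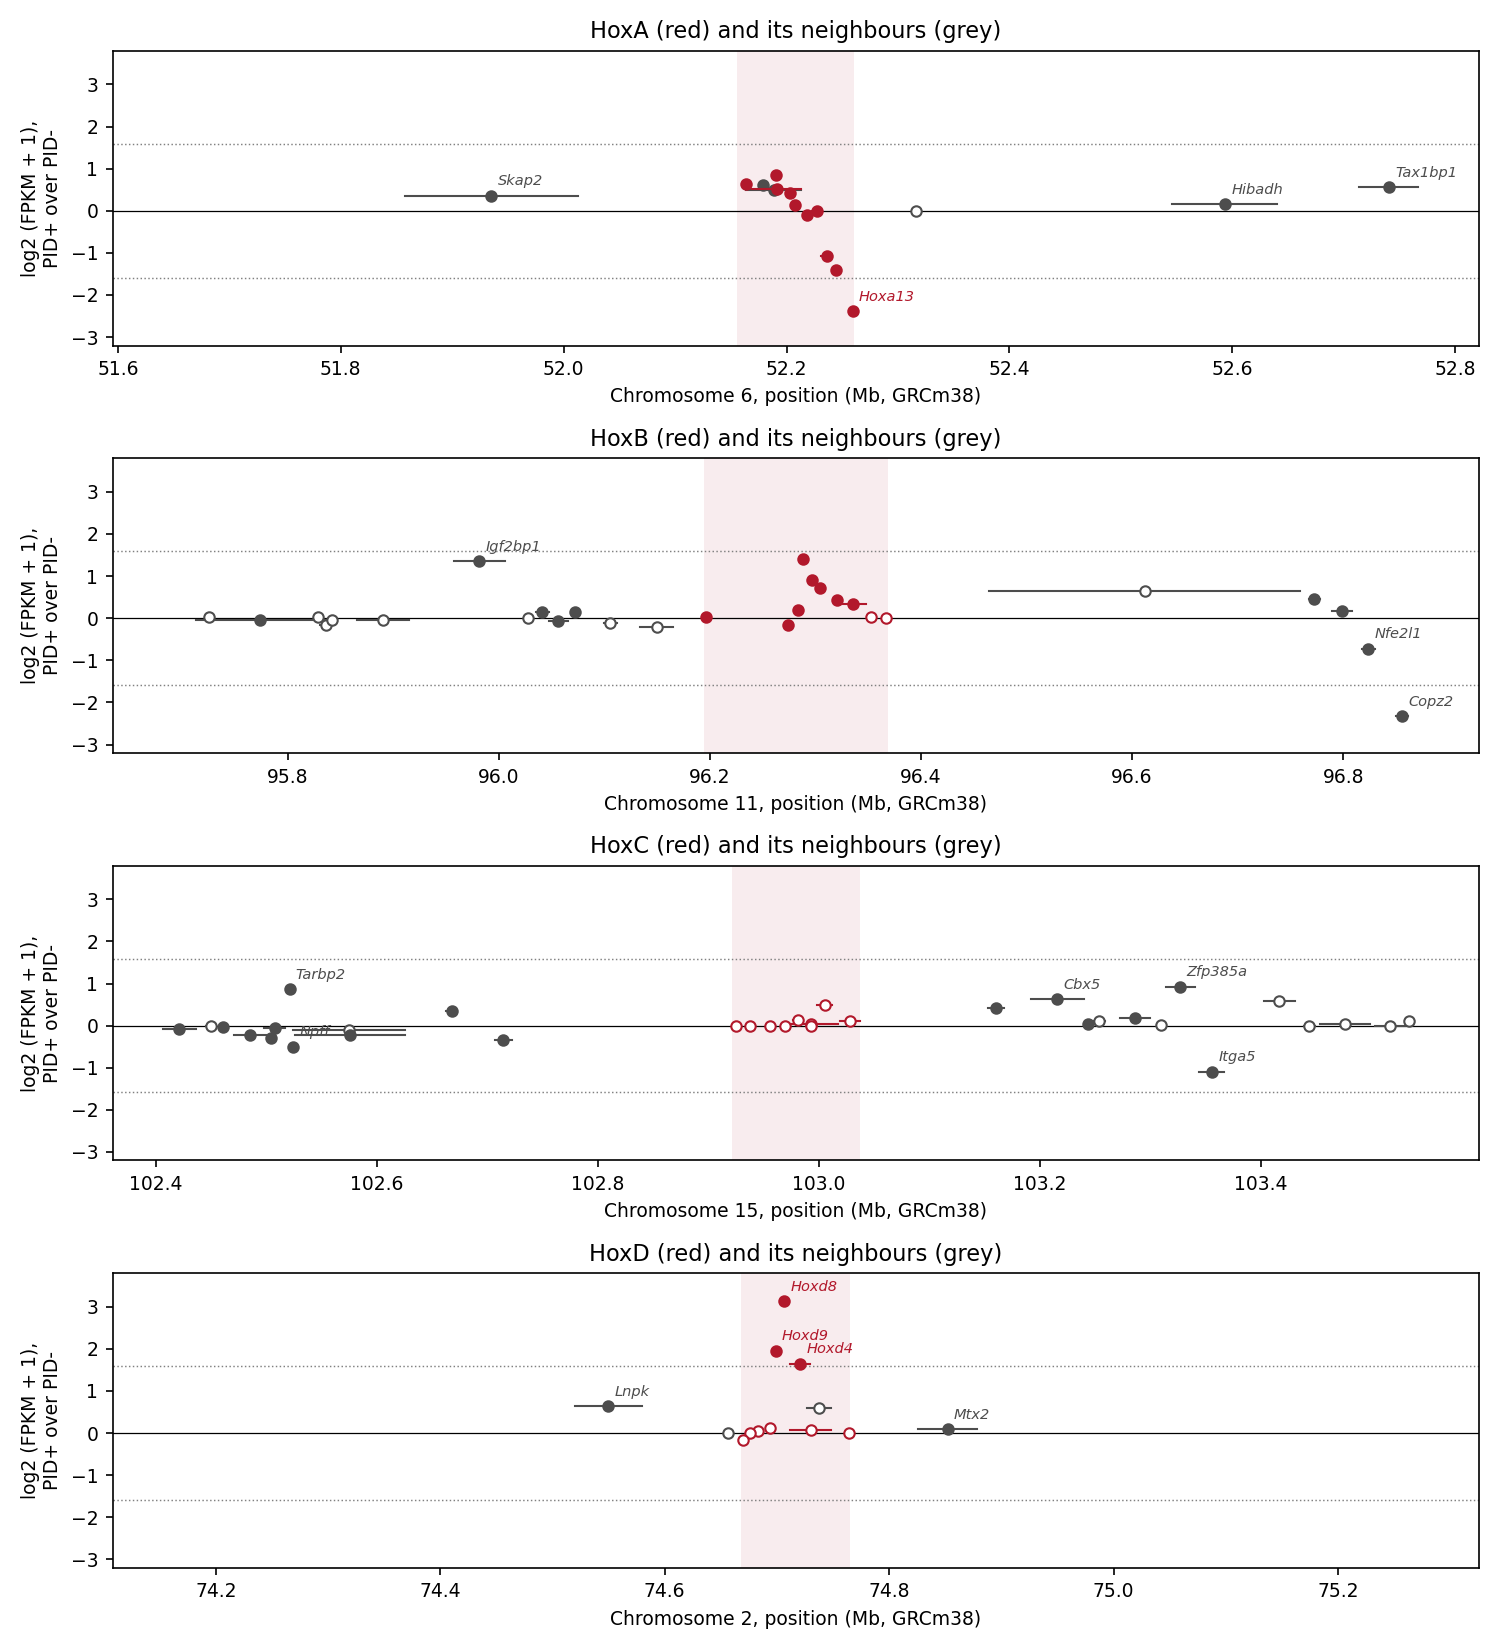
Log2 change in FPKM + 1 (vertical axis, PID+ over PID-) of the genes within 500 kb of each Hox cluster against their position (horizontal axis, Mb, GRCm38). Red marks Hox genes and grey other genes, lines their extent, open circles genes under 1 FPKM in both conditions, shading the cluster, and dotted lines the 3-fold threshold. HoxA changes go from 0.64 at Hoxa2 to -2.39 at Hoxa13, between neighbours at 0.36 and 0.16.

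Promoter sequence was read for the called genes, because Hoxd8, Hoxd9 and Hoxd4 moved together while Hoxa13 moved the other way. RefSeq promoters (GRCm38.p6, 250 bases before to 50 after the start) matched 22 of the 39 Hox genes with 24 windows, and the 4 called genes were among them. The windows were searched on both strands for TTTATG and TTTATT, of the type bound by caudal proteins, and for TGATTNAT, of the type bound by Hox and Pbx proteins together. TTTATG was in 5 of the 24 Hox windows and in 11.9% of all 32851 promoters. TTTATT was in 5 and 19.6%, and TGATTNAT in 2 and 3.22%. Hox windows had a median of 14.5 CpG dinucleotides, against 7 over all promoters, and a median ratio of observed to expected CpG of 0.626 against 0.384.

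The part of each window before the first protein coding exon is given from 5′ to 3′, with motif matches in capitals. The Hoxd8 part (chr2:74704365-74704614, plus strand) lies in the span of the antisense transcript Hoxd3os1. The Hoxd9 part (chr2:74697513-74697726, plus strand) is cut to 214 bases, since the annotated first exon begins inside the window, and overlaps the antisense transcript Gm28793. The Hoxd4 part (chr2:74721728-74721977, plus strand) lies in introns of longer Hoxd3 and Hoxd4 transcripts. The Hoxa13 part (chr6:52260881-52261130, minus strand) lies in no other gene.
Hoxd8: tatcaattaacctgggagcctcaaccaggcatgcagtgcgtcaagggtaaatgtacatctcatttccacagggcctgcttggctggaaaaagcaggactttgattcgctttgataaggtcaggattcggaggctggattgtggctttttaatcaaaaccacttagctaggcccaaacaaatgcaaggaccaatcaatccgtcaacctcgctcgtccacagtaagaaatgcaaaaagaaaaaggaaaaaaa
Hoxd9: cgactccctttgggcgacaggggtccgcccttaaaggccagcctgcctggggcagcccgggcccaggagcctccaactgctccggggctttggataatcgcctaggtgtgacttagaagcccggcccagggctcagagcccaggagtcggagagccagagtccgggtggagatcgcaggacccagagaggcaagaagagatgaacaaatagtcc
Hoxd4: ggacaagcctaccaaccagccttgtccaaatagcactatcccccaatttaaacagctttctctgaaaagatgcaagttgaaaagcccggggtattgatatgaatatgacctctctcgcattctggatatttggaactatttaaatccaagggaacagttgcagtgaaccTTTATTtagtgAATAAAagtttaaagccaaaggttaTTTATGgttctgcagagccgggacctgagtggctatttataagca
Hoxa13: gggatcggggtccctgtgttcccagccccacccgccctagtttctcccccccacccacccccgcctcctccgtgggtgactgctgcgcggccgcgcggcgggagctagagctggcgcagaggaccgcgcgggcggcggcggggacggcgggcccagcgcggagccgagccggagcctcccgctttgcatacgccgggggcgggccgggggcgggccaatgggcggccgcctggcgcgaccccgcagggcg
The promoters of the 3 HoxD genes shared no motif match. The 300-base window of Hoxd4 held 2 matches to TTTATG and 3 to TTTATT, and those of Hoxd8, Hoxd9 and Hoxa13 held none of the 3 motifs. CpG dinucleotides numbered 6 in the window of Hoxd8, 20 in that of Hoxd9, 4 in that of Hoxd4 and 45 in that of Hoxa13. A match describes the letters of the window and is not a measured binding site.

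Hox proteins bind DNA with TALE homeodomain cofactors of the Pbx, Meis and Pknox families. Of 9 such genes, 2 were called lower in PID+ cells and none higher, beside 1.72% and 1.04% of all genes, and the median log2 change was -0.08. Pknox2 was among them, with an FPKM of 0.0534 in PID+ cells against 4.35 in PID- cells (-2.34). Pbx4, usually restricted to the testis, had 13.9 and 6.19 (1.05) and was not called. The Meis genes were expressed in both conditions, with 2.34 and 2.54 for Meis1, 10.3 and 6.52 for Meis2, and 11.6 and 6.18 for Meis3.

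Caudal (Cdx) genes act upstream of posterior Hox genes in the embryo and set intestinal identity. They were read together with their ParaHox relatives. Cdx2, the intestinal master regulator, had an FPKM of 0.542 in PID+ cells, with an interval from 0 to 1.64, and 8.04 in PID- cells, with an interval from 1.07 to 15.01, a log2 change of -2.55. It was the 1 called gene of 6, beside 1.72% of all genes called lower. Of the Hox genes with paralog number 13, Hoxa13 was lower too, whereas Hoxb13 had 12.5 and 12.3. Hoxd13 had 0.00636 and 0.129, and Hoxc13 was listed at 0 in both conditions. Cdx1, Cdx4 and Gsx2 were listed at 0 in both conditions, and Gsx1 and Pdx1 had values of at most 0.0885. The Cre of both genotypes is driven by a CDX2 promoter, while the Cdx2 measured here is the gene of the mouse itself.

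Polycomb proteins keep Hox clusters silent, and trithorax proteins keep them active. All 16 Polycomb genes of the list were expressed in both conditions, with a median log2 change of 0.11. Cbx7, a reader of methylated histone H3 in Polycomb complexes, was the 1 gene called higher, beside 1.04% of all genes, with an FPKM of 9.42 in PID+ cells against 2.29 in PID- cells (1.66). That call was lost with Gapdh set equal (1.11), totals equal (1.57) or the chromosome median subtracted (1.47). Ezh2, the histone methyltransferase and the most abundant Polycomb gene of PID+ cells, had 60.5 and 32.8 (0.86). Phc2, the most abundant in PID- cells, had 55.3 and 57.8 (-0.06).

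Of 12 trithorax and histone H3K27 demethylase genes, none was called, beside 2.76% of all genes, and the median was 0.05. Psip1, which links Mll complexes to chromatin, was the most abundant, with 42.5 in PID+ cells against 61.8 in PID- cells (-0.53). Retinoic acid and axial signalling had no call among 15 genes, beside 2.76% of all genes, and a median of 0.04. Rdh10, which makes the precursor of retinoic acid, was the most abundant, with 129 and 59.9 (1.10). Aldh1a2, which completes the synthesis, had 41.8 and 22.3 (0.88). Gdf11 had 1.02 and 4.23 (-1.37) and was not called. Cyp26b1 had 4.48 and 2.12 (0.81), and the receptor gene Rara had 10.7 and 15.3 (-0.48). Of the 15 genes, 9 were above 0 on the log2 scale and 6 below.

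Regional identity was also read from other genes of the gut. Among 15 endoderm transcription factors, Isx was the 1 called lower, beside 1.72% of all genes, with 3.44 in PID- cells and a listed value of 0 in PID+ cells, and the median log2 change was -0.02. Isx, an intestinal homeobox gene, is a known target of Cdx2. Foxa1, a pioneer factor of the endoderm, was the most abundant in both conditions, with 36.5 in PID+ cells against 34.3 in PID- cells (0.09). Of the 8 expressed in at least 1 condition, Foxa1 was the 1 above 0 and 7 were below. Their median was -0.77, beside -0.01 over all expressed genes, and Isx counted as expressed through PID- cells alone. Foxa2 had 1.01 and 4.35 (-1.41).

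Markers of the differentiated gut regions were mostly absent. Of 9 colon markers, 8 were in the table. Car1, a colonic carbonic anhydrase, was the 1 called lower, beside 1.72% of all genes, with an FPKM of 5.55 in PID- cells and a listed value of 0 in PID+ cells. Car4 was listed at 0 in both, and Muc2, the goblet cell mucin, had 0.687 and 0.603. Both Muc2 values lay above the upper bounds of their own intervals (0.131 and 0.217). None of 11 small intestine markers was called, beside 2.76% of all genes. Their highest values were 1.42 for Fabp2 in PID+ cells and 0.448 for Apob in PID- cells. Among 9 stomach and oesophagus markers none was called, beside the same 2.76%. Krt14, a keratin of basal squamous cells, was the most abundant in PID+ cells, with 2.18 against 0.0912 (1.54), and Trp63 in PID- cells, with 0.175 against 0.0227.

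Genes that mark cell types were also read in the pooled cultures. The paper describes PID- cells as fibroblast-like in appearance and reports lower mesenchymal markers in PID+ cells. Fibroblast markers therefore cannot tell fibroblasts from tumour cells in such a state. Of 8 epithelial markers, 7 were expressed in each condition, summing to an FPKM of 9083 in PID+ cells against 4957 in PID- cells, and Vil1, the brush border villin, was near 0 (0.175 and 0.0614). Krt18 was the most abundant in PID+ cells (2843) and Krt19 in PID- cells (2073). Epcam and Cldn7 were called higher in PID+ cells, beside 1.04% of all genes, and Epcam had an FPKM of 401 and 124. Setting Gapdh equal ended both calls, and setting totals equal ended that of Epcam. How far a different share of epithelial transcripts entered the Hox values was not tested.

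Fibroblast markers were mostly lower in PID+ cells, as were Hoxa10, Hoxa11 and Hoxa13, of which only Hoxa13 was called. Of 10 such genes, 9 were below 0 on the log2 scale and 4 were called, beside 1.72% of all genes called lower, with summed FPKM of 3.14 in PID+ cells against 36.3 in PID- cells. Col1a2 had 0.0654 and 11.9, with intervals apart. Col1a1, the most abundant in PID+ cells, had 2.32 and 11.9, Col3a1 had 0.339 and 6.35, and Dcn was listed at 0 in PID+ cells with 2.39 in PID- cells. Lum was listed at 0 in both conditions and Pdgfra had 0.188 and 0.243. The part of fibroblast-type transcripts in the differences of Hoxa10, Hoxa11 and Hoxa13 was not tested.

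Markers of other cells were low. Smooth muscle genes summed to 5.77 in PID+ cells against 12.96 in PID- cells, with Acta2 the most abundant (4.39 and 9.76), and Myh11 and Des at most 0.119. Endothelial genes summed to 4.06 and 1.41, of which Kdr had 3.33 and 1.01 while Pecam1 had 0.096 and 0.0931. Haematopoietic genes summed to 0.17 and 0.326, led by Adgre1 in PID+ (0.0669) and Csf1r in PID- cells (0.233), with Cd3e listed at 0. Enteric neural and glial genes summed to 1.71 and 2.47, with Sox10 listed at 0 in both conditions. None of these 24 genes was called, beside 2.76% of all genes.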

How the data were processed

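RNA of 6 samples, 3 PID+ and 3 PID-, was sequenced with an unstranded kit. Per the methods, the authors trimmed adapters with CutAdapt and mapped the reads of a condition jointly with TopHat, using the GRCm38.p3 genome with annotated protein coding genes. They deposited the FPKM of CuffDiff with its interval. The deposited interval bounds, which have no named unit of their own, are in FPKM. Symbols were matched to 21734 of 21966 gene identifiers (232 had none), and positions, exons and transcript lengths came from GENCODE M21 (GRCm38).

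Here log2 ratios of FPKM + 1 were calculated with Python 3.11.15, pandas 2.3.3, NumPy 2.4.6 and SciPy 1.17.1, and drawn with Matplotlib 3.10.9, and 21959 genes with a successful estimate in both conditions formed the background. The value of a read was the first step of FPKM times transcript length less 185 bases over 4406 genes with 1 transcript. The calculations were checked on simulated data. Every Hox gene with an FPKM of at least 1 in a condition was named with both values. Full statements were given for Hox genes changing at least 3-fold and for the most abundant of each cluster in each condition. Of the other lists, members changing at least 3-fold and the most abundant were named, and some further members were picked once their values were known. Some genes under these rules are not reported here. Members and lists were chosen with earlier results of these data known. Alternatives were a pseudocount of 0.1, equal upper quartiles, Gapdh or totals, subtraction of the chromosome median, a 2-fold rule, separate intervals, a filter at 1 FPKM, and expression thresholds of 0.3 and 5.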

Additional observations from a re-analysis of the deposited data

How the results depend on the processing

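The 3 Hox genes at least 3-fold higher became 5 with a pseudocount of 0.1 (2.83% of all genes), 5 with a 2-fold rule (3.31%), 1 with Gapdh equal (0.346%) and 0 when the authors' intervals had to be apart. The 1 gene at least 3-fold lower became 3 with Gapdh equal (3.01% of all genes), 2 with the chromosome median subtracted (1.74%), 3 with a 2-fold rule (3.77%) and 0 by the intervals. With equal totals, 2 genes were higher (0.879% of all genes) and 1 lower (1.85%). The median log2 change of HoxD was 1.95 over its 3 expressed genes alone, which passed that filter only through PID+ cells, and 0.07 over all 9. With Gapdh equal, the log2 ratio of summed FPKM was -1.03 for HoxA and -0.25 for HoxB, beside -0.40 and 0.36 as deposited. With a pseudocount of 0.1 it was 2.79 for HoxC and 5.05 for HoxD, beside 0.67 and 3.48. No HoxC gene passed the filter at 1 FPKM. At an FPKM of at least 5, 16 Hox genes were expressed in PID+ and 11 in PID- cells, beside 21 and 19 at 1. No call of a named gene turned into the opposite call. Of 265 values of 53 genes under alternatives, 247 kept their side of the threshold, 10 fell below it and 8 passed it. Hoxa11 passed it with Gapdh equal (-1.98) and with the chromosome median subtracted (-1.74), Hoxa10 with Gapdh equal (-1.68) and Hoxb7 with a pseudocount of 0.1 (1.61). The cause of these shifts was not tested.

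Leaving out replicates was not run, since the values are pooled over the replicates. The rank correlations, the weighted paralog numbers and their alternatives were added after seeing the data. The scalings multiply all PID+ values alike, so the unchanged rank correlations are no sign of stability. No paired analysis was possible because the conditions share no replicate numbers. Depth is unknown, and values of HoxC and of most HoxD genes rest on few estimated reads. Protein sequences were not analysed here.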
